A study of Mus musculus with 22 samples.

Results

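The cells described here were the Early Anterior PSM cells of mouse gastruloids, where PSM stands for presomitic mesoderm. They were taken by the cluster name that the authors deposited for each cell, and 2556 of the 77674 cells in the deposited cell table carried it. Gastruloids are aggregates of embryonic stem cells that elongate in culture and form derivatives of the germ layers. All of them were made from wild-type E14Tg2A cells, a mouse embryonic stem cell line, grown in N2B27 medium and given the GSK3 inhibitor CHIR99021, which activates Wnt signalling, so no untreated group existed. Samples were taken between day 3 and day 5 after aggregation and read by droplet 3′ single-cell RNA sequencing, in which each transcript molecule is counted once by its unique molecular identifier (UMI). One experiment pooled gastruloids of day 3 or day 4 in a lane each without marking them (the 10X experiment). In 3 others, called MULTI-seq 1 to 3 here, cells of every gastruloid received a lipid-anchored barcode before pooling. Cells with a barcode call could be traced to their gastruloid and day. The groups compared were day 3.5 (16 gastruloids) and day 4 (16) of 1 pool of MULTI-seq 3, day 4.5 (16) and day 5 (16) of another pool of MULTI-seq 3, and day 4 (11) and day 4.5 (12) of pool B of MULTI-seq 2, counting gastruloids with at least 30 cells. The gastruloid was the replicate throughout, and the lanes of a pool were technical splits of the same barcoded cells. The labels do not tie the gastruloids of an experiment to separate cultures, so p-values measure only the spread between these gastruloids. No cell barcode of the cluster was shared over 105 pairs of lanes, and the UMIs summed per gastruloid in the fits ran from 109632 to 8575278. The 123 cells of the cluster in the 10X experiment and the 130 in pool C of MULTI-seq 2 had no gastruloid name and entered no test. The same held for 203 cells of the day 3.5 and day 4 pool of MULTI-seq 3. It also held for 16 cells of its day 4.5 and day 5 pool and 24 of pool B of MULTI-seq 2.

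In the embryo, paraxial mesoderm is laid down at the tail end as presomitic mesoderm and matures as it comes to lie further forward, where it is cut into somites, the blocks that later give vertebrae, muscle and dermis. Cells leave the posterior state, kept by Wnt and FGF signals and marked by Tbx6 and Msgn1, when these signals fade and retinoic acid, made by Aldh1a2, takes over. At the front of the presomitic mesoderm the Notch clock switches on Mesp2, a transcription factor that sets the next segment border, and Mesp2 activates Ripply2, a corepressor that ends Mesp2 expression and leads to the loss of Tbx6 protein. Tcf15 (paraxis) is a transcription factor needed for somites to become epithelial.

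The 4 genes proposed as markers of these cells were all present. In day 4 gastruloids of MULTI-seq 3, with 10000 UMIs drawn from each cell, Aldh1a2 was detected in 99.2% of 1774 Early Anterior PSM cells, Tcf15 in 87.3%, Ripply2 in 44.5% and Mesp2 in 28.4%. In Early Spinal Cord cells, which should lack these genes, the shares drawn in the same way were 10.3%, 3.47%, 0.595% and 0.303%. Neighbouring clusters held them too, with 97.3%, 33.5%, 7.47% and 21.1% in Early Posterior PSM and 99.2%, 95.7%, 50.3% and 35.2% in Late Anterior PSM. The median depth before drawing was 29483 UMIs in Early Anterior PSM cells and 35332 in Early Spinal Cord cells. Without drawing, Mesp2 had a UMI in 42.4% and Ripply2 in 61.8% of Early Anterior PSM cells. Both Mesp2 and Ripply2 were seen in 524 of the 1780 cells, Mesp2 alone in 231, Ripply2 alone in 576 and neither in 449.

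Sequences just before the transcription start are shown for Mesp2 and Ripply2, the pair that defines the border region, and for Id2 and Id3, targets of BMP signalling whose level differed widely between gastruloids in these cells. Each run holds the 250 bases before the start of the gene's RefSeq model in build GRCm38.p6, read in the direction of transcription. Mesp2 lies at chr7:79810477-79810726 (plus strand), Ripply2 at chr9:87015287-87015536 (plus strand), Id2 at chr12:25096093-25096342 (minus strand) and Id3 at chr4:136143572-136143821 (plus strand). Capitals mark TCACAC, a core site bound by T-box factors such as Tbx6, in Ripply2 (Mesp2 holds none here), GGCGCC, a GC-rich site bound by the SMAD proteins that carry BMP signals, in Id2, and CAGAC, the SMAD box, in Id3, each searched on both strands.
Mesp2 promoter: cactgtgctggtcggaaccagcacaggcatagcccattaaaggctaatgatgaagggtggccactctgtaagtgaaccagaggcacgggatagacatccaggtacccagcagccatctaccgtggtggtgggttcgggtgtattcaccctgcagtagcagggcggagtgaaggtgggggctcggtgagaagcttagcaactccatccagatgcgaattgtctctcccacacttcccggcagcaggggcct
Ripply2 promoter: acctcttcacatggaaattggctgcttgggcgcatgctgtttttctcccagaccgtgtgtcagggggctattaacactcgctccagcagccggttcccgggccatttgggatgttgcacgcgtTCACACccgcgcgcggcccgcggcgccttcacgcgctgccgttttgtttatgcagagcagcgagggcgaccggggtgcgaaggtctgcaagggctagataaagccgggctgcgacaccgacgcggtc
Id2 promoter: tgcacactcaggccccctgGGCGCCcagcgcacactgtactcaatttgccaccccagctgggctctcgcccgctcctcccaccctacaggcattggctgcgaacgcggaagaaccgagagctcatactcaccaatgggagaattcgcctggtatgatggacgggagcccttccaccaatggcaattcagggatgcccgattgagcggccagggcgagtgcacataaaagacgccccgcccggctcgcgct
Id3 promoter: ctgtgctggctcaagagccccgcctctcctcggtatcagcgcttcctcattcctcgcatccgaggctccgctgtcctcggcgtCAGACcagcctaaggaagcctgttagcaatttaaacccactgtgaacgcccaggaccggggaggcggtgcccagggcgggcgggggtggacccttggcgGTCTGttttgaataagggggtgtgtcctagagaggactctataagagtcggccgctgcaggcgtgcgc
TCACAC was found once before Ripply2, 127 bases before the start, and not in this window before Mesp2, while 12.3% of 32851 mouse promoters of the same length held it. GGCGCC lay 231 bases before the start of Id2 and was held by 9.59% of promoters. CAGAC stood 167 and 68 bases before the start of Id3, the nearer one on the opposite strand as GTCTG, and was held by 42.2% of promoters. The Ripply2 window also held 1 GGCGCC and 2 CAGAC, left in lower case, and Mesp2 held none of the 3 motifs. These matches are letters in a sequence, and no binding was measured here.

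Early Anterior PSM cells carried the border genes Mesp2 and Ripply2, with Tbx6, Hes7 and Msgn1 below their levels in the posterior presomitic clusters. The cluster names were made from these genes, so the levels are a description with no test. Levels are given in UMIs per 1000000 (CPM) of the summed cells of a gastruloid, at day 4 of MULTI-seq 3. Tbx6 averaged 131 CPM in Early Posterior PSM (n = 16 gastruloids), 160 in Late Posterior PSM (n = 16), 31.4 in Early Anterior PSM (n = 15), 30.4 in Late Anterior PSM (n = 13) and 4.68 in Somites (n = 13). It was lower in Early Anterior than in Early Posterior PSM in 15 of 15 gastruloids that held both. Hes7, the core oscillator of the segmentation clock, went from 194 and 346 CPM in the 2 posterior clusters to 42.5 in Early Anterior PSM. Msgn1, a posterior factor, was at 0.0448 CPM in Early Anterior PSM and 11.1 in Late Posterior PSM. Dll3, also listed as posterior, was lower than in Early Posterior PSM in 8 of 15 gastruloids and higher in 7. Other genes listed for the border went both ways against Early Posterior PSM. Mesp1, Foxc1, Snai1, Cited1 and Rspo3 were lower here in 14, 13, 12, 15 and 15 of 15 gastruloids. Epha4, Pcdh8 and Foxc2 were higher in all 15, and Lfng, Ripply1 and Cer1 in 14.

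Mesp2 and Ripply2 were raised in Early Anterior PSM but were still higher in Late Anterior PSM. Mesp2 was 64.1 ± 27.4 CPM (SD, n = 15) in Early Anterior PSM, against 29.0 in Early Posterior PSM, 116 in Late Anterior PSM and 3.07 in Somites. It was higher than in Early Posterior PSM in 13 of 15 gastruloids and lower than in Late Anterior PSM in 11 of 13. Ripply2 was 139 ± 36.8 CPM (SD, n = 15), against 9.83 in Early Posterior PSM, 183 in Late Anterior PSM and 6.31 in Somites, and was lower than in Late Anterior PSM in 9 of 13 gastruloids. Tcf15 was 489 ± 149 CPM (SD, n = 15), between the 72.2 of Early Posterior PSM and the 673 of Somites. Aldh1a2 did not follow this order, since Early Posterior PSM held 983 CPM, Early Anterior PSM 1082 ± 148 (SD, n = 15) and Late Anterior PSM 901. These neighbours overlapped widely in Aldh1a2, and it was higher in Early Anterior than in Early Posterior PSM in 12 of 15 gastruloids. Uncx, a factor of the posterior part of formed somites, was 0.353 CPM in Early Anterior PSM and 45.5 in Somites. Over pooled cells with 10000 UMIs drawn from each, Hand1 and Lhx1 were detected more often here than in the other 5 paraxial clusters. Hand1 had a UMI in 12.0% of the cells and in at most 5.43% of the others, and Lhx1 in 27.9% against at most 23.5%. In Late Nascent Mesoderm, outside the paraxial clusters, the shares were 21.1% and 82.0%. In Early Anterior PSM cells of MULTI-seq 2 at day 4 they were 5.95% for Hand1 and 13.5% for Lhx1. By CPM per gastruloid, Lhx1 was higher here than in Early Posterior PSM in 5 of 15 gastruloids and lower in 10. Hand1 was higher in 11 of the 15 and lower in 1. Cer1, an inhibitor of Nodal and BMP ligands, was 66.8 CPM in Early Anterior PSM and 0.688 in Early Posterior PSM. It was lower in Early Anterior PSM than in Somites in 10 of 13 gastruloids, and higher in 3. Against Late Anterior PSM it was lower in 7 of 13 and higher in 6.

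**Figure D1:**
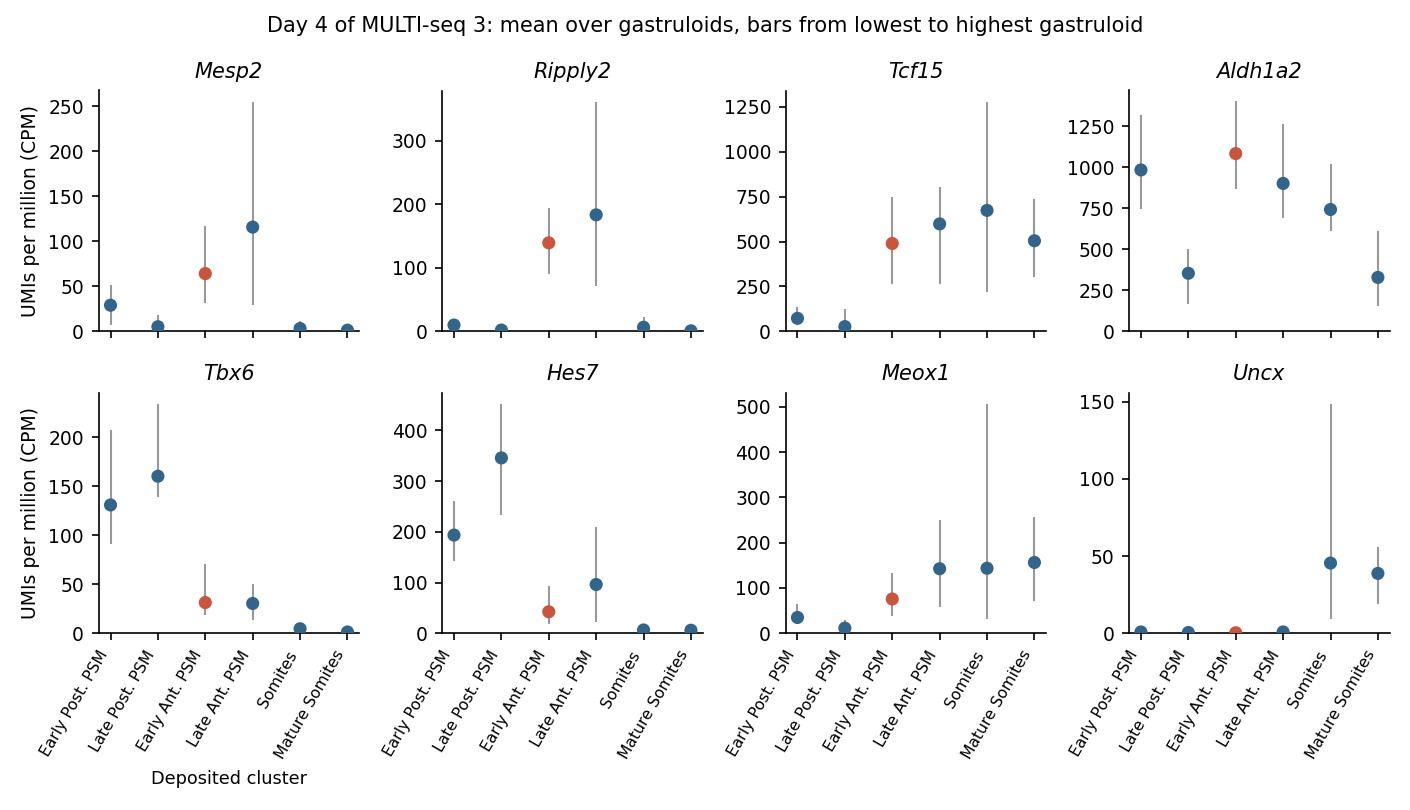
Levels of 8 genes (CPM, y axes starting at 0) in 6 deposited clusters of paraxial mesoderm at day 4 of MULTI-seq 3. Dots are means over gastruloids, bars run from the lowest to the highest gastruloid, and Early Anterior PSM is in red. The means of Mesp2 and Ripply2 are highest there and in Late Anterior PSM, while Tbx6 and Hes7 are below the posterior clusters.

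The authors also deposited, for each cell, the name of the most similar cells in 2 mouse embryo references, called original and extended. In the original reference 74.8% of the Early Anterior PSM cells mapped to the posterior-most somites and 83.8% to stage E8.0. In the extended reference the largest class was Intermediate mesoderm, with 834 cells (32.6%), ahead of Somitic mesoderm with 785 and Paraxial mesoderm with 457. Of the genes known for intermediate mesoderm, from which the kidney forms, Pax2, Pax8 and Wt1 were nearly absent from the cells mapped there. Over 14 gastruloids of MULTI-seq 3 at day 4 these cells averaged 0.237 CPM of Pax2, 0 of Pax8, 0.123 of Wt1 and 4.14 of Osr1, and Osr1 was 9.18 in the other Early Anterior PSM cells. Lhx1, also known in intermediate mesoderm, was 42.9 CPM in these cells and 40.6 in the rest. The cells mapped to Intermediate mesoderm held more Mesp2, Ripply2, Tbx6 and Foxc1 and less Tcf15, Hand1 and Id2: Mesp2 was 122 against 50.2 CPM (higher in 13 of 14 gastruloids), Ripply2 236 against 116 (13 of 14), Tbx6 53.3 against 19.8 (14 of 14) and Foxc1, a forkhead factor of paraxial mesoderm, 232 against 157 (14 of 14). Tcf15 was lower there, with 405 against 538 CPM (lower in 13 of 14), as were Hand1, with 6.05 against 21.5, and Id2, with 37.4 against 56.5 (each lower in 12). Foxc2 went the other way from Foxc1, with 173 against 195 CPM (lower in 11 of 14). Meox1, a somite factor, went the other way from Tcf15, with 94.6 against 71.5 CPM (higher in 11 of 14). The marker Aldh1a2 was 1223 against 1010 CPM (higher in 12 of 14). Since the mapping used the same transcriptomes, these differences are a description. The share mapped to Intermediate mesoderm ranged from 18.3% to 80.0% over 15 gastruloids, with a median of 32.6%, and the highest value came from a gastruloid with 5 Early Anterior PSM cells.

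Early Anterior PSM cells came up between day 3.5 and day 4 and were few at day 5. Shares were taken among the paraxial cells of a gastruloid (Early and Late Posterior PSM, Early and Late Anterior PSM, Somites and Mature Somites), which leaves neural and endodermal cells out of the denominator. Only gastruloids with at least 30 cells, at least 10 of them paraxial, entered the shares per gastruloid. At day 3 no cell of 3058 in the 10X experiment carried the name, which allows a share of up to 0.121% (95% exact binomial interval). None of 5545 and 6541 in the lanes of MULTI-seq 3 did. At day 3.5 of MULTI-seq 3 the share ranged from 0% to 9.09% with a median of 0%, and at day 4 from 6.41% to 39.4% with a median of 26.05%. The groups overlapped through 1 gastruloid of day 3.5, in which 1 of 11 paraxial cells carried the name. The mean went from 0.855% ± 2.45 (SD, n = 14) to 24.3% ± 10.9 (SD, n = 16), a difference of 23.5 percentage points (two-sided permutation test, adjusted p = 1.5e-05 over 3 comparisons, the smallest the resamples allow).

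The later shares fell in both experiments. In MULTI-seq 2 the share at day 4 ranged from 0% to 21.4% with a median of 12.3%, and at day 4.5 from 1.83% to 13.6% with a median of 6.12%. These ranges overlapped, while the means fell from 13.3% ± 6.50 (SD, n = 9) to 5.57% ± 3.78 (SD, n = 9), by 7.77 percentage points (two-sided exact permutation test, adjusted p = 0.00736). Gastruloids of at least 30 cells but fewer than 10 paraxial cells were left out. At day 4.5 these were gastruloids 15, 61 and 19, with 4 of 6, 1 of 3 and 0 of 4 paraxial cells in the cluster. At day 4 they were gastruloids 2 and 49, with 0 of 1 and 0 of 3. In the other pool of MULTI-seq 3 the share at day 4.5 ranged from 0% to 19.5% with a median of 2.84%, and at day 5 from 0% to 2.00% with a median of 0.118%. The means fell by 4.24 percentage points, from 4.68% ± 5.28 (SD, n = 15) to 0.445% ± 0.629 (SD, n = 16; two-sided permutation test, adjusted p = 1.5e-05). In MULTI-seq 1, which held day 5 alone, the mean was 0.636% over 23 gastruloids and the highest 7.69%, from 3 of 39 paraxial cells. Day 4 and day 4.5 of MULTI-seq 3 were in separate pools and were not compared for shares. The 10X experiment held 123 cells of the cluster among 2440 at day 4, or 5.04% (95% exact binomial interval 4.21% to 5.99%, counting error only).

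**Figure D2:**
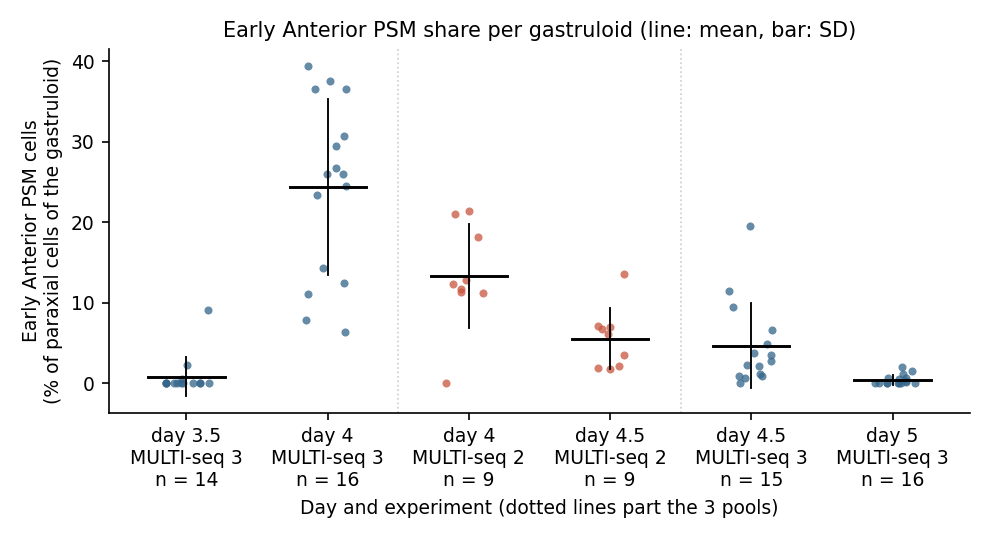
Share of Early Anterior PSM cells among the paraxial cells of each gastruloid (percent, y axis), by day and experiment. Points are gastruloids with at least 30 cells and 10 paraxial cells, lines are means and bars are SD. All 16 day 4 gastruloids of MULTI-seq 3 lie between 6.41% and 39.4%, and day 5 of MULTI-seq 3 reaches 2.00%. MULTI-seq 1 is not drawn.

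Gastruloids of day 4 differed widely in how many of these cells they held. In MULTI-seq 3 they held between 4 and 263 (median 122.5), or 1.03% to 25.2% of their cells. The 2 gastruloids at the bottom, with 4 and 5 cells, were those in which neural types made up 69.9% and 74.6% of the other cells. In MULTI-seq 2, 3 gastruloids of 60 to 92 cells with neural shares of 63.0% to 90.0% held no Early Anterior PSM cell. Across the 16 gastruloids of MULTI-seq 3 the percent of Early Anterior PSM cells rose with the percent of Early Posterior PSM among the remaining cells (Pearson's r = 0.874, Spearman's rho = 0.85, permutation test, adjusted p = 0.00062 over 31 pairs of both experiments). With the 2 most extreme gastruloids dropped, r was 0.846. Late Posterior PSM gave r = 0.71 (permutation test, adjusted p = 0.029, and 0.0531 for rho = 0.691), and 0.731 with the 2 most extreme dropped. The negative relations with Caudal Neurectoderm (r = -0.524) and Late Spinal Cord (r = -0.542) rested on the 2 most extreme gastruloids, without which r was -0.179 and 0.181. In MULTI-seq 2 the gastruloids fell into separate clusters, and within the larger one, of 8 gastruloids for most types, no relation passed. There Early Posterior PSM gave r = 0.495 and rho = -0.0952 (exact permutation test, adjusted p = 0.558 and 0.928), and r was -0.356 with the 2 most extreme dropped. Late Posterior PSM gave r = -0.433 and rho = -0.357 (exact permutation test, adjusted p = 0.595 and 0.675), and both rho were thus below 0, against 0.85 and 0.691 in MULTI-seq 3.

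Among day 4 gastruloids of MULTI-seq 3, wide differences within Early Anterior PSM cells were found in Id1, Id2 and Id3, inhibitors of bHLH transcription factors that BMP signalling induces, and in Ptch1, the Hedgehog receptor that Hedgehog signalling induces. UMIs were summed per gastruloid and lane over 14 gastruloids with at least 5 cells in at least 2 lanes (1768 cells, 55 sums), and edgeR's quasi-likelihood F-test asked whether gastruloids differed beyond the spread between lanes. That spread is technical, so the test is of these gastruloids and not of a condition. Of 9460 genes, 971 passed at an adjusted p under 0.05 (10.3%). The boundary list had 14 of 15 members among them, with Lfng (edgeR, adjusted p = 0.231) as the exception, and a median SD of 0.38 in log2 CPM over gastruloids against 0.19 over all genes tested. The BMP list had 7 of 8 (median SD 0.60), the cardiopharyngeal and lateral mesoderm list 8 of 9 (0.68), the posterior PSM list 7 of 7 (0.42) and the somite list 5 of 8 (0.48). Of the pathway lists, Notch had 10 of 14 (0.28), FGF 9 of 12 (0.44), Wnt 10 of 12 (0.34), retinoic acid 5 of 9 (0.34), glycolysis and hypoxia 12 of 16 (0.27), cell cycle 14 of 22 (0.17) and Hox 5 of 13 (0.45). The stress and RNA quality list had 6 of 7 (0.24), with Fos at 1.21 to 41.5 CPM and Fosb at 0 to 17.8, and the part of sample handling in the other lists was not tested. The share called in each of these lists was above 10.3%, but their members were not matched to the other genes in level. The lists, also used below, were chosen with earlier results of these data known, so their counts are a description. They are not separate results, since some genes count in several. Rspo3 is in the boundary, posterior PSM and Wnt lists, Tcf15 in the boundary and somite lists, and Dll1, Dll3 and Hes7 in the posterior PSM and Notch lists.

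Id3 ranged from 38.6 to 570 CPM over the 14 gastruloids with a median of 334 (edgeR, adjusted p = 4.97e-24). Id1 ranged from 34.4 to 364 CPM with a median of 219 (edgeR, adjusted p = 2.73e-23), and Id2 from 4.50 to 108 with a median of 41.4 (edgeR, adjusted p = 7.92e-17). The same 3 gastruloids were lowest in all 3 genes. The sum of the 3 genes was 78.2 CPM in gastruloid 7, 118 in gastruloid 13 and 149 in gastruloid 1 (numbers are the barcodes), and 432 to 1042 CPM in the other 11. Their single cells were low as a whole: the median cell held 51.3, 86.9 and 49.9 CPM in gastruloids 7, 13 and 1, and 237 to 850 CPM in the others. The median depth was 25057 UMIs per cell in gastruloid 1, the lowest of the 14, 28088 in gastruloid 13 and 28214.5 in gastruloid 7, and 27067.5 to 32654 in the others. These 3 gastruloids also held the fewest Early Anterior PSM cells of the 14. Gastruloids 7, 13 and 1 had 30, 61 and 27 such cells, and the others 81 to 263. Their shares among paraxial cells were 7.87%, 14.3% and 6.41%, and those of the others 23.4% to 39.4%. The parts of depth and cell number were not tested. Without these 3 gastruloids, a fit added after seeing the data called 768 genes.

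Low Id levels were also seen in other paraxial clusters of these 3 gastruloids. In Early Posterior PSM the sum was 125 CPM in gastruloid 7, 243 in gastruloid 13 and 266 in gastruloid 1, and 323 to 866 CPM in the other 11. Within those 11 the sums of the 2 clusters gave r = 0.48 and rho = 0.59, given as a description. In Late Posterior PSM it was 98.0, 173 and 116 CPM, against 143 to 547 in the other 11, so gastruloid 13 lay inside their range. In Somites it was 101, 245 and 123 CPM, against 786 to 1994 in the other 10 with such cells. The 3 gastruloids also differed in makeup: Mature Somites made up 27.3%, 24.3% and 26.1% of their other cells, and at most 10.7% in the rest. Head Mesoderm made up 27.2%, 11.3% and 20.6%, and at most 6.35% in the rest. The part of this makeup in the Id levels was not tested.

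Hand1, Foxf1 and Isl1, picked from the lateral and cardiac genes after their values were seen, were low in the 3 gastruloids with low Id levels, and Tcf15 was high there. Hand1, a factor of lateral mesoderm, ranged from 0 to 65.1 CPM with a median of 8.78 (edgeR, adjusted p = 2.81e-18). It was at 0, 0 and 1.52 CPM in gastruloids 7, 13 and 1, and at its highest in gastruloids 2 and 17. Foxf1, a lateral mesoderm factor, ranged from 6.09 to 54.1 CPM with a median of 22.7 (edgeR, adjusted p = 2.6e-15), and Isl1, a cardiac progenitor factor, from 4.17 to 40.0 with a median of 16.7 (edgeR, adjusted p = 1.21e-12). Tcf15 ranged from 267 to 740 CPM with a median of 509 (edgeR, adjusted p = 9.72e-23), and Meox1, a somite factor, from 37.7 to 128 with a median of 71.8 (edgeR, adjusted p = 1.05e-12). Gastruloids 7 and 13 were the highest in Tcf15, and gastruloid 17, second highest in the Id sum, was the lowest. The 4 markers passed too, with ranges besides that of Tcf15 for Mesp2 (35.3 to 120 CPM, median 58.6), Ripply2 (92.0 to 198, median 133) and Aldh1a2 (768 to 1247, median 1076). By the likelihood ratio test of DESeq2 the adjusted p of Ripply2 was 0.473.

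**Figure D3:**
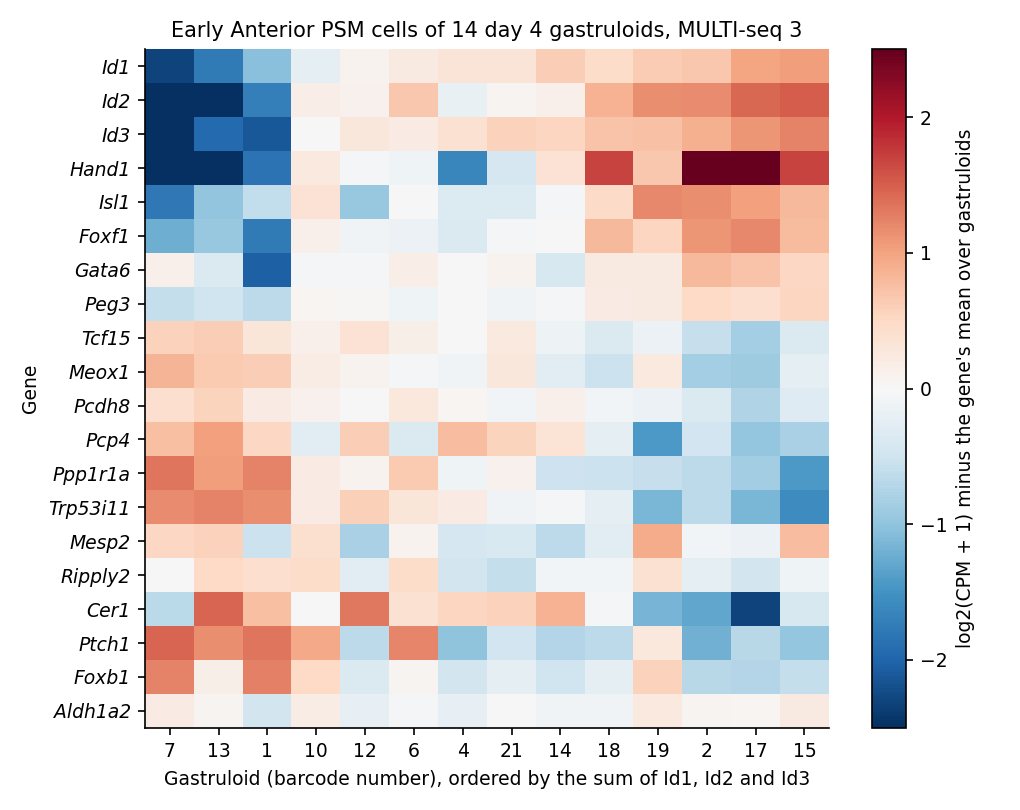
Levels of 20 genes (rows) in the Early Anterior PSM cells of 14 day 4 gastruloids of MULTI-seq 3 (columns, ordered by the sum of Id1, Id2 and Id3), as log2(CPM + 1) minus the gene's mean, with colours capped at 2.5. In gastruloids 7, 13 and 1, the first columns, the Id genes and Hand1 are low and Tcf15, Meox1, Ppp1r1a and Trp53i11 are high.

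Within the 11 gastruloids that did not stand apart, the order of the same genes along the Id sum is given as a description, with no test, because the genes and the gastruloids were chosen from these values. On the log2 scale Tcf15 was lower where the Id sum was higher (r = -0.82, rho = -0.87, r with the 2 most extreme dropped -0.93). Foxf1 (r = 0.79, rho = 0.75), Hand1 (r = 0.73, rho = 0.78) and Isl1 (r = 0.68, rho = 0.72) were higher there. The values were smaller for Meox1 (r = -0.61, rho = -0.57), Mesp2 (r = 0.34, rho = 0.35) and Ripply2 (r = -0.33, rho = -0.22).

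The 7 day 4 gastruloids of MULTI-seq 2, grown in another experiment, were ordered in the same way, which had also been seen before it was computed and is likewise given with no test. Their Id sums and Tcf15 levels were 80.6 and 722 CPM in gastruloid 55, 167 and 624 in gastruloid 28, 286 and 797 in gastruloid 56, and 413 and 427 in gastruloid 6. They were 712 and 412 in gastruloid 12, 779 and 330 in gastruloid 52, and 919 and 81.5 in gastruloid 30. The 4 gastruloids with the higher Id sums thus had the 4 lower Tcf15 levels. For Tcf15 rho was -0.89 and r -0.72. Hand1 gave rho = 0.91 and r = 0.76, with 4 gastruloids at 0, 2 at 7.24 and 8.81 CPM, and gastruloid 30 at 157. Foxf1 gave rho = 0.58 and Isl1 rho = 0.25. Meox1 gave rho = -0.89 and r = -0.49. It lay between 88.1 and 98.1 CPM in 6 of the 7 gastruloids and at 9.78 in gastruloid 30, so the order among those 6 rests on small differences. Gastruloid 30 held 9 Early Anterior PSM cells. In the extended reference 100% of them mapped to Paraxial mesoderm, against 6.25% to 33.3% in the other gastruloids of this group.

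Ptch1, the Hedgehog receptor gene, differed between gastruloids that differed in notochord and partly also in the Id sum. It ranged from 23.2 to 152 CPM with a median of 36.5 (edgeR, adjusted p = 1.98e-32). It was 66.1 to 152 CPM in the 6 gastruloids in which Notochord cells, the source of Hedgehog ligand in the embryo, made up 3.52% to 11.1% of the other cells. It was 23.2 to 38.8 CPM in the 8 with 0.157% to 1.15% Notochord cells, so the levels of the 2 sets did not overlap. The first set included gastruloids 1, 7 and 13, and its Id sums were 78.2 to 757 CPM, against 523 to 1042 in the second. Within the 11 gastruloids other than 1, 7 and 13, Ptch1 gave r = -0.56 and rho = -0.55 with the Id sum. These sets were formed after the values had been seen, and no correlation of Ptch1 with the Notochord share was computed. In Early Posterior PSM the ranges of the 2 sets, 68.7 to 139 and 42.3 to 71.9 CPM, overlapped, as did those in Late Posterior PSM, 47.7 to 135 and 37.7 to 51.2 CPM. In Somites they did not overlap, with 25.3 to 48.1 CPM in the 5 gastruloids of the first set that had such cells and 9.18 to 23.6 in the 8 of the second. In Late Anterior PSM they overlapped through gastruloid 19 alone, at 29.8 CPM, with 77.0 to 146 CPM in the other 5 and 8.04 to 30.8 in the second set. Gastruloid 19, with the highest Notochord share, had the lowest Ptch1 of the 6. In MULTI-seq 2 the order was mixed. Ptch1 was 35.9 and 27.3 CPM in gastruloids 30 and 6, with 1.49% and 2.60% Notochord cells among the others. It was 67.5, 70.6 and 63.1 CPM in gastruloids 12, 28 and 55, with 3.00%, 8.02% and 8.43%. Against this order, it was 80.5 CPM in gastruloid 56, with 0.585%, and 39.6 in gastruloid 52, with 9.43%.

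**Figure D4:**
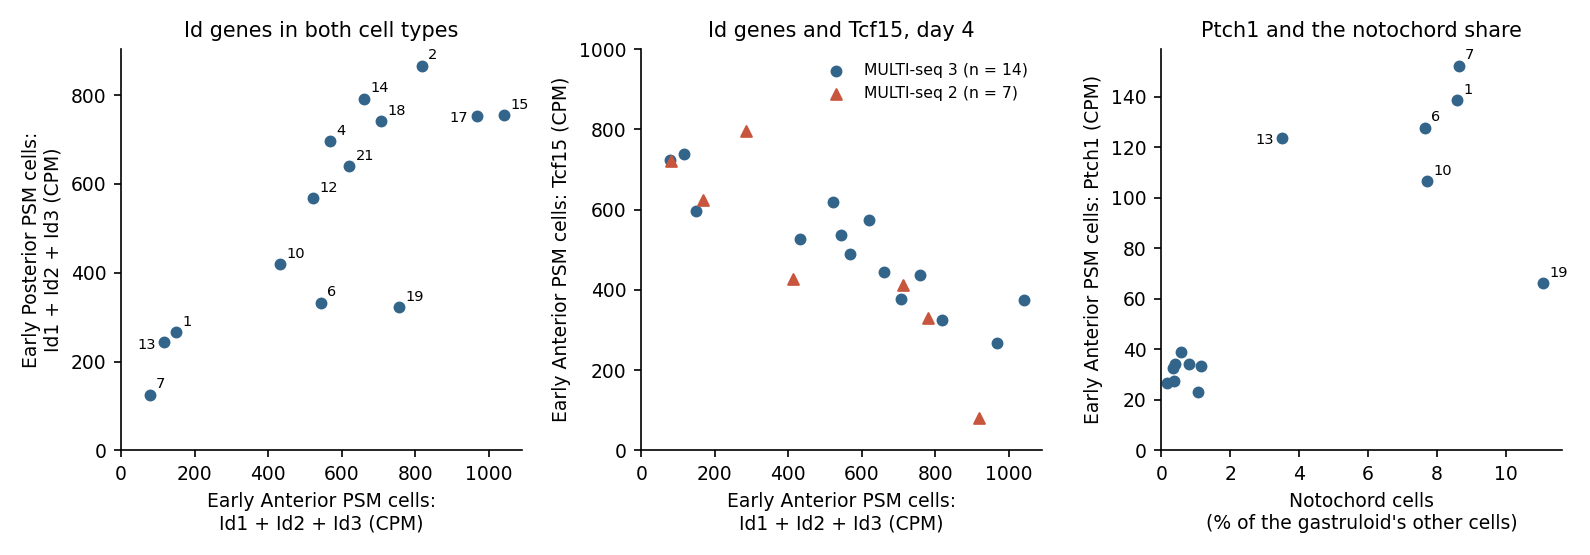
Left, sum of Id1, Id2 and Id3 (CPM) in Early Posterior against Early Anterior PSM cells of 14 day 4 gastruloids of MULTI-seq 3; middle, Tcf15 (CPM) against the same sum in both experiments; right, Ptch1 (CPM) against the Notochord share of the other cells. Points are gastruloids, with barcode numbers beside them on the left and, above 2% Notochord, on the right. Tcf15 is lower where the Id sum is higher, in the 14 circles and the 7 triangles.

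Other genes with a large spread between gastruloids were Cer1 (10.97 to 163 CPM, median 67.2, edgeR, adjusted p = 2.09e-21), Fst, an activin and BMP antagonist (96.0 to 421, median 192), and Ldha, a glycolytic enzyme (809 to 1454, median 1155). Ppp1r1a, a phosphatase inhibitor (20.2 to 144 CPM) and Trp53i11 (8.84 to 68.0) were highest in gastruloids 1, 7 and 13, those low in the Id genes. Pcp4, a calmodulin regulator (15.7 to 90.6 CPM), was highest in gastruloid 13. Nnat (6.20 to 112 CPM), an imprinted gene, and Mt1, a metallothionein (10.9 to 92.9), were each led by 1 gastruloid, number 7 and number 1. Nnat lost its call without lane B (edgeR, adjusted p = 0.101) and by DESeq2 (adjusted p = 0.135), and Mt1 with sums of at least 10 cells (edgeR, adjusted p = 0.0533).

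Whether genes of Early Anterior PSM cells moved with the neural share of their gastruloid was tested over 15 gastruloids of MULTI-seq 3. Of 9375 genes, 19 passed (0.203%, edgeR), 11 higher (0.117%) and 8 lower (0.0853%) with more neural cells. The result rested on gastruloid 22, which held 5 Early Anterior PSM cells and a neural share of 74.6%. With sums of at least 10 cells, which drops it, no gene passed (346 at an unadjusted p under 0.05), and DESeq2 on all 15 called 59 of the 1044 genes it tested.

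From day 4 to day 4.5 the Early Anterior PSM cells of MULTI-seq 3 gained Ripply2, Tcf15, Meox1 and several Hox genes, and lost genes of early developmental timing and of mitosis. The comparison set 15 gastruloids of day 4 (1776 cells) against 6 of day 4.5 with at least 5 cells each (46 cells in all), and day cannot be told apart from pool and lanes. Of 10218 genes, 1552 passed (15.2%, edgeR), 761 higher (7.45%) and 791 lower (7.74%) at day 4.5. The split depended on scaling: size factors of DESeq2 in edgeR gave 882 higher and 648 lower, and the test of DESeq2 itself 984 and 629. Without lanes A or C of the later pool, 781 and 962 genes passed. The median log2 change of all genes was -0.11 in the first and 0.11 in the last of these, so changes of that size have no clear direction. Signs of depth and RNA quality moved with the day. From day 4 to day 4.5 the median depth went from 29483 to 24354.5 UMIs per cell, the median number of genes from 5401.5 to 4556 and the median ribosomal share from 27.2% to 30.9%. The stress and RNA quality list had 1 of 8 lower, the chaperone Hspa8 (1193 to 943 CPM in mean, log2 change -0.35, edgeR, adjusted p = 0.00629), and its summed level was 1585 to 2771 CPM at day 4 (median 2568) and 1776 to 2442 at day 4.5 (median 2184, with Atf3, Hspa1a and Hspa1b at 0). Their part in the changes below was not tested.

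Among the border genes, 4 of 15 rose, where 7.45% of all genes did, and none fell. Ripply2 ranged at day 4 from 89.7 to 193 CPM with a median of 130, and at day 4.5 from 85.3 to 603 with a median of 293. Of the 6 gastruloids of day 4.5, 5 lay above all of day 4 and 1 below. The rise was 1.25 ± 0.25 (SE) on the log2 scale (edgeR, adjusted p = 0.000554). Tcf15 ranged from 260 to 722 CPM at day 4 and from 650 to 1159 at day 4.5, with 5 of 6 above all of day 4, a rise of 0.95 ± 0.19 (SE, log2; edgeR, adjusted p = 0.000505). Pcdh8, a protocadherin of the presomitic mesoderm (177 to 276 CPM in mean, log2 change 0.75), and Lfng, the fringe enzyme of the Notch clock (93.6 to 141, 0.51), were the other members. Pcdh8 lost the call with mapped cells and without lane C of the later pool, and Lfng with mapped cells, without lane A and with no filter. Without lane C the log2 change of Lfng was 0.01 (edgeR, adjusted p = 0.984), so its call rested on that lane. Mesp2 ranged from 30.2 to 117 CPM at day 4 and from 23.9 to 153 at day 4.5 and did not pass (log2 change 0.53, edgeR, adjusted p = 0.462). Aldh1a2 did not pass either (1060 to 834 CPM in mean, log2 change -0.28, edgeR, adjusted p = 0.0924).

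Restricting the fit to cells that the extended reference mapped to presomitic, somitic or paraxial types left 14 and 3 gastruloids and 612 calls. In that fit Ripply2 (log2 change 0.27, edgeR, adjusted p = 0.838), Tcf15 (0.61, 0.242) and Meox1 (1.08, 0.334) no longer passed. Without lane A of the later pool, with 4 gastruloids of day 4.5 left, the adjusted p (edgeR) was 0.0657 for Tcf15 (log2 change 0.76) and 0.0722 for Meox1 (1.28). Without lane C it was 0.0726 for Meox1 (1.20). Several other genes kept the sign of their change, given below, but lost the call. Hoxb4, Hoxb8 and Hoxd1 did so with mapped cells (log2 changes 1.20, 2.32 and 1.09, edgeR, adjusted p = 0.137, 0.123 and 0.183) and without lane A (1.15, 2.10 and 1.32, with 0.095, 0.105 and 0.0755), and Hoxb5 without lane A (1.34, 0.225). Lin28a was at -0.91 without lane A (edgeR, adjusted p = 0.0694), at -0.86 without lane C (0.0623) and at -0.64 with mapped cells (0.313). Hmga2 was at -0.34 (edgeR, adjusted p = 0.167), -0.35 (0.0959) and -0.26 (0.329) in the same order. Prtg lost the call with mapped cells (-0.56, edgeR, adjusted p = 0.0834) and Cenpf without lane A (-0.63, 0.0681).

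Of the somite list, 3 of 9 passed, and this count and those of the next lists are to be read against the 15.2% of all genes that passed (7.45% higher and 7.74% lower). Meox1 rose from a range of 36.7 to 125 CPM to one of 88.3 to 227, with 4 of 6 gastruloids above all of day 4 (log2 change 1.18 ± 0.34, SE; edgeR, adjusted p = 0.0148), Tcf15 is counted again here, and Pdgfra, a receptor of early mesoderm, fell (80.2 to 47.0 CPM in mean, log2 change -0.82). The Hox list had 6 of 15 passing, 5 of them higher: Hoxb4 went from 23.0 to 58.7 CPM in mean (log2 change 1.38), Hoxd1 from 28.9 to 66.4 (1.27), Hoxb5 from 5.15 to 17.03 (1.70), Hoxb8 from 2.25 to 9.98 (2.03) and Hoxa5 from 3.28 to 10.3 (1.54). Hoxb2 fell, from 117 to 86.5 CPM in mean (log2 change -0.41). The sums of day 4.5 held 162879 to 381646 UMIs, so levels near 10 CPM rest on a few UMIs per gastruloid. Hoxb8 did not pass the filter on low counts in the day 4 comparison between the experiments. It may have entered here through its day 4.5 levels, so its rise is a description. The timing list, which includes genes known to decline as the embryo trunk forms, such as Lin28a and Nr6a1, had 4 of 8 lower and none higher. Nr6a1 ranged from 79.6 to 143 CPM at day 4 and from 32.1 to 63.7 at day 4.5, with no overlap (log2 change -1.04 ± 0.15, SE; edgeR, adjusted p = 4.51e-06). Prtg (550 to 301 CPM in mean, -0.80), Lin28a (87.8 to 45.2, -0.86) and Hmga2 (1115 to 843, -0.39) were the others. The cell cycle list had 7 of 22 passing, 6 of them lower, among them Mki67 (273 to 104 CPM in mean, log2 change -1.36), Cenpe (182 to 86.3, -0.99), Cenpf (426 to 238, -0.73) and Top2a (580 to 367, -0.60). The deposited phase calls put 52.6% ± 8.30 (SD, n = 15 gastruloids) of the cells in G2M at day 4 and 32.4% ± 19.8 (SD, n = 6) at day 4.5. The ranges, 40.0% to 67.2% and 12.5% to 60%, overlapped, 2 of the 6 gastruloids of day 4.5 lay above the mean of day 4, and the difference was not tested. In MULTI-seq 2, where both days shared a pool, the share in G2M was 34.0% ± 15.2 (SD, n = 7) at day 4 and 36.3% ± 9.82 (SD, n = 5) at day 4.5. The log2 changes there were 0.06 for Mki67, -0.06 for Top2a, -0.11 for Nr6a1, 0.05 for Hmga2, -0.57 for Prtg and -0.63 for Lin28a. None of these genes passed in MULTI-seq 2.

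The signalling lists are to be read against the same shares. In the Notch list 3 of 14 rose, the receptors Notch1 (309 to 426 CPM in mean, log2 change 0.48) and Notch2 (52.1 to 91.7, 0.74) with Lfng. In the Wnt list Tcf7 (23.1 to 8.92 CPM, -1.45) and Lef1 (694 to 581.5, -0.23) fell among 13, and in the FGF list Spred1 (84.1 to 56.5, -0.56) fell among 13. Without lane C of the later pool, Notch1 (log2 change 0.30, edgeR, adjusted p = 0.149), Notch2 (0.44, 0.431) and Spred1 (-0.54, 0.103) lost the call, as did Lef1 with the size factors of DESeq2 (-0.18, 0.116). Without lane A, Notch2, Spred1 and Lef1 lost it too (edgeR, adjusted p = 0.129, 0.23 and 0.222), and with mapped cells none of these 4 genes passed. None of the 9 BMP genes, 8 posterior PSM genes, 9 cardiopharyngeal and lateral genes or 16 glycolysis genes tested passed. Id1 (189 to 67.0 CPM in mean, log2 change -1.62 ± 0.63, SE; edgeR, adjusted p = 0.0789) and Id3 (282 to 121, -1.32 ± 0.61, adjusted p = 0.154) had wide errors, and the median log2 change of the BMP list was -1.32 against -0.11 over all genes. Id1 passed with DESeq2 (log2 change -1.44, adjusted p = 0.0438) and, in edgeR, without lane A (0.0405) or lane D (0.0333) of the day 4 pool. In MULTI-seq 2, where both days shared a pool, neither gene passed. There Id1 went from 151 to 205 CPM in mean (log2 change 0.41 ± 0.42, SE) and Id3 from 289 to 278 (-0.05 ± 0.33, SE). The summed cardiopharyngeal and lateral genes ranged from 46.1 to 251 CPM at day 4 and from 29.8 to 70.9 at day 4.5, with Hand1, Hand2, Nkx2-5 and Tbx5 of its 12 genes at 0 in the latter. The part of cells from that lineage was not tested. By size, the largest rises besides Hox genes were in Nnat (31.6 to 132 CPM in mean, log2 change 1.84), Ptn, a secreted growth factor (121 to 351, 1.65, all 6 gastruloids above all of day 4) and Apip (117 to 295, 1.36). Large falls were seen in Kif14, a mitotic kinesin (25.3 to 5.80, -2.24), and in Lhx1, a factor of nascent mesoderm (38.3 to 11.3, -2.21, with 1 of 6 gastruloids of day 4.5 at 45.9 and the others at 6.34 or less). Lhx1 lost its call, at log2 changes no smaller than the first, with mapped cells (-2.58, edgeR, adjusted p = 0.27) and without lane A (-3.03, 0.098) or lane C (-2.92, 0.0575) of the later pool. Nnat lost it with smaller changes in mapped cells (0.91, edgeR, adjusted p = 0.687) and without lane A of the later pool (0.90, 0.623). It also lost it without lane C of that pool (2.08, edgeR, adjusted p = 0.0545) or lane A of the day 4 pool (1.89, 0.0557), where the change was as large.

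MULTI-seq 2 held both days in 1 pool, with 7 gastruloids of day 4 (100 cells) and 5 of day 4.5 (52 cells). There edgeR called 0 of 4188 genes (0%), with 238 at an unadjusted p under 0.05, and DESeq2 called 0 of 10235. Mesp2 was 9.33, 18.0, 21.5, 25.1, 39.0, 75.5 and 87.5 CPM at day 4 and 9.32, 78.2, 109, 117 and 206 at day 4.5. Of day 4.5, 3 gastruloids lay above all of day 4, 1 inside its range and 1 at its lower end (log2 change 1.35 ± 0.36, SE; edgeR, adjusted p = 0.451). With no filter on low counts, Mesp2 (adjusted p = 3.57e-06, edgeR) and Meox1 (0.000743) were among 22 genes that passed. Meox1 was 9.75 to 100 CPM at day 4 and 67.2, 145, 158, 189 and 218 at day 4.5, with 4 of 5 above all of day 4 (log2 change 0.94 ± 0.27, SE; edgeR, adjusted p = 0.451), close in size to its change in MULTI-seq 3. Tcf15 went from 489 to 697 CPM in mean (0.47 ± 0.26, SE, log2; edgeR, adjusted p = 0.902). Ripply2 had means of 277 and 285 CPM (0.15 ± 0.39, SE, log2), with ranges of 89.6 to 744 and 46.6 to 566.

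A joint fit of the 4 groups, added after seeing the data, tested whether the day change differed between the experiments. Of 5709 genes, 502 passed (edgeR). None of the 4 markers did, with differences (MULTI-seq 3 minus MULTI-seq 2, log2) of 1.10 for Ripply2 (edgeR, adjusted p = 0.196), 0.55 for Tcf15 (0.403), -0.78 for Mesp2 (0.532) and -0.29 for Aldh1a2 (0.422). Over 4188 genes tested in both, 54.1% changed in the same direction, and over the 1233 of them that passed in MULTI-seq 3, 56.0% did.

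**Figure D5:**
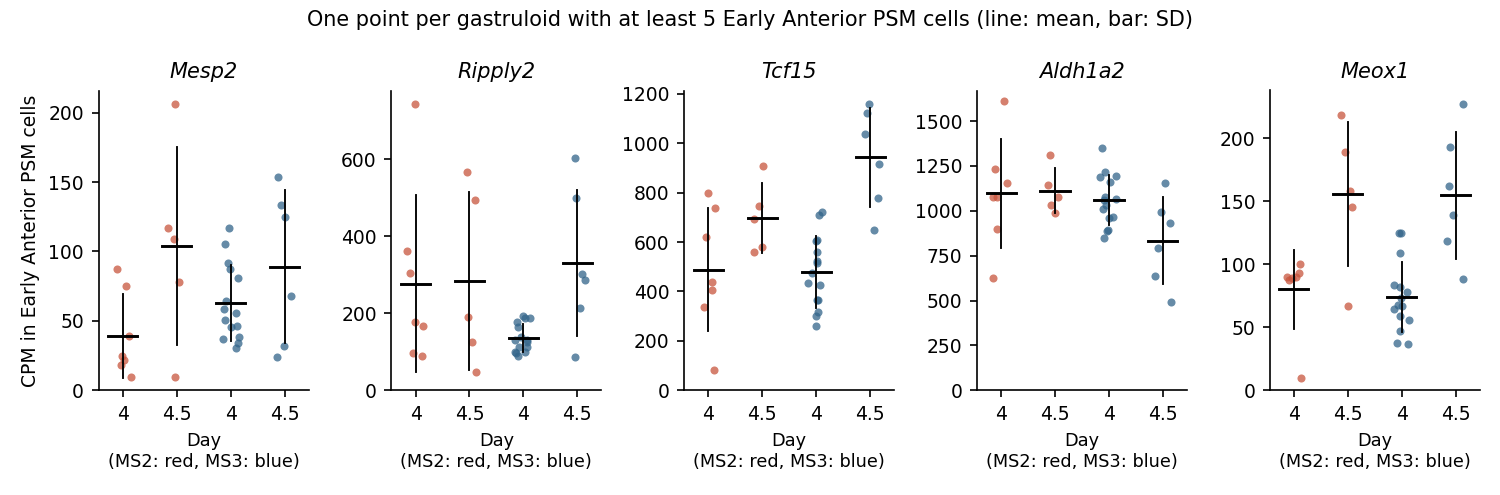
Levels (CPM, y axes from 0) of the 4 markers and Meox1 in Early Anterior PSM cells at day 4 and day 4.5, in MULTI-seq 2 (MS2, red) and MULTI-seq 3 (MS3, blue). Points are gastruloids with at least 5 cells, lines are means and bars SD; the means of Tcf15 and Meox1 are higher at day 4.5 in both experiments, and those of Ripply2 go from 277 to 285 CPM in MULTI-seq 2 and from 136 to 331 in MULTI-seq 3.

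Early Anterior PSM cells of the same day were also compared between the experiments, 15 gastruloids of MULTI-seq 3 against 7 of MULTI-seq 2, where culture, library and lanes cannot be told apart. Of 9837 genes, 1714 passed (17.4%, edgeR), 840 higher (8.54%) and 874 lower (8.88%) in MULTI-seq 3. Leaving out lane 2 or lane 3 of MULTI-seq 2, which left 5 of its gastruloids, gave 913 and 794 calls. Of the markers, Ripply2 was lower in MULTI-seq 3 (277 to 136 CPM in mean, log2 difference -1.13 ± 0.25, SE; edgeR, adjusted p = 0.00135), although all 15 gastruloids lay inside the range of MULTI-seq 2, and this was lost with mapped cells only (-0.53, edgeR, adjusted p = 0.263). As scaled in the day comparisons, the median of Ripply2 was 177 CPM in MULTI-seq 2 and 130 in MULTI-seq 3. Gastruloid 56 of MULTI-seq 2 held 744 CPM, and its part in the difference was not tested. The other 3 markers did not pass. Among the largest differences were those in Ptk7 (4.09 to 59.4 CPM in mean), a Wnt co-receptor, Arf5 (21.3 to 229), Snhg9 (1.94 to 22.3) and Pfn1 (106 to 984), all higher in MULTI-seq 3, and in Nnat (171 to 31.4) and Rhox5 (29.0 to 5.48), lower there. The timing list had 4 of 8 higher in MULTI-seq 3, and the glycolysis and hypoxia list 4 of 16 lower. The stress and RNA quality list had 2 of 8 lower, the chaperones Hspa8 (2077 to 1187 CPM in mean) and Hsp90aa1 (1852 to 1139), each below all of MULTI-seq 2 in 15 of 15 gastruloids. Its summed level was 3553 to 4126 CPM in MULTI-seq 2 and 1585 to 2771 in MULTI-seq 3. Median mitochondrial shares of 2.34% in MULTI-seq 3 and 5.82% in MULTI-seq 2 and median depths of 29483 and 23437 UMIs went with these differences, and their part was not tested.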

How the data were processed

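Single cells of 4 experiments were sequenced with 10x 3′ chemistry, per the labels. Per the headers of the deposited files, the authors' UMI counts per gene and cell came from Cell Ranger (version 6.0.0) and are raw; the submitters' processing notes also name the genome build mm10 and Seurat. The deposited cell table gives the authors' cluster, gastruloid, phase and embryo reference names, and doublets were not called again. Here the counts of Early Anterior PSM cells were summed per gastruloid (at least 5 cells a sum) and tested with edgeR 4.0.16 (quasi-likelihood, TMM, filterByExpr) in R 4.3.3, with Benjamini-Hochberg adjustment over all genes tested. DESeq2 1.42.0 was an alternative. CPM in gene comparisons are TMM-scaled, and CPM across clusters and mapped classes are not.

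Shares were compared by permutation (100000 resamples, or exact enumeration where a group had fewer than 10 gastruloids, in place of the planned resamples). Python 3.11.15, numpy 2.4.6, pandas 2.3.3 and scipy 1.17.1 were used, and the model scripts were tested on simulated data. Genes were named by size among those called at a mean of at least 20 CPM (8 per direction, 15 between gastruloids) and by lowest p within 22 lists (4 each), leaving out mitochondrial, ribosomal and Xist genes; the markers, and other list members and Id genes added after their values were seen, were named besides. The members and lists were chosen with earlier results of these data known. Promoters are from RefSeq, and 210 of 296 genes looked up had one. Alternatives changed the scaling, test, filter, cell minimum, mapped cells and lanes. Some results are not reported here.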

Additional observations from a re-analysis of the deposited data

Results flagged for a closer look

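Within groups of 4 to 10 gastruloids, 17 sets of values were examined for a single gastruloid far from the rest, which chance alone gives in about 1 in 20 sets. Ripply2 in Early Anterior PSM cells at day 4 of MULTI-seq 2 was 744 CPM in gastruloid 56 and at most 362 CPM in the other 6. Meox1 in the same group was 9.75 CPM in gastruloid 30 and at least 87.5 CPM in the others. The share of Early Anterior PSM among paraxial cells was 0% in gastruloid 25 of that group, which held 10 paraxial cells, and 13.6% in the highest gastruloid of day 4.5, where the median was 6.12%. The change from day 4 to day 4.5 differed between MULTI-seq 3 and MULTI-seq 2 in 502 of 5709 genes by the interaction term of a joint edgeR fit, with 1260 at an unadjusted p under 0.05 and a lowest adjusted p of 1.17e-06. In MULTI-seq 3 the days were in separate pools, and in MULTI-seq 2 in the same pool, so the pool cannot be told apart from the day in the first.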

How the results depend on the processing

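No paired analysis was possible because barcode numbers that recur between groups mark different gastruloids, and lanes are technical splits. The 3 share comparisons kept direction and call under every alternative run, as did the count of genes differing between gastruloids (687 to 1375, within 1.5 times). With mapped paraxial cells only, the comparison of day 4 with day 3.5 rested on 2 gastruloids of day 3.5 and 14 of day 4. For day 4.5 against day 4 in MULTI-seq 3, mapped cells only gave 612 genes, and leaving out 1 lane 781 to 1583, with 3 to 6 day 4.5 gastruloids left. In MULTI-seq 2 that comparison gave 22 genes with no filter on low counts and 1 without lane 3. MULTI-seq 3 against MULTI-seq 2 gave 794 to 1733 genes with 1 lane left out. The neural share gave 59 with DESeq2, 0 with at least 10 cells (346 at an unadjusted p under 0.05), 0 with mapped cells (305), 0 without the 2 gastruloids at the extremes (595), and 0 to 13 with a lane left out (edgeR). Share relations numbered 1 by Spearman's rho and 1 to 7 with a lane left out. The sign of Aldh1a2 turned to -0.0084 in the MULTI-seq 2 day comparison with no filter, and between experiments to 0.019 with no filter, 0.0453 with mapped cells and -0.0746 to 0.0484 with a lane left out. Between experiments, with a lane left out, Mesp2 ran from -0.23 to 1.05 and Tcf15 from -0.216 to 0.0261 (log2), and none of these passed. Of 477 single-gene values under alternatives for the day 4.5 comparison of MULTI-seq 3, 77 lost the call and 4 gained it; 31 of 845 between gastruloids and 11 of 220 between experiments lost it. The cause was not tested. Fits with 1 or 2 gastruloids left in a group (at least 10 cells, MULTI-seq 2 without lane 2, MULTI-seq 3 without lane B of the later pool) and day 5 against day 4.5 (6 against 0) were not run. Low cell numbers at day 4.5 (46 in MULTI-seq 3, 52 in MULTI-seq 2) limit what those comparisons can show.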
